A study of Mus musculus with 21 samples.

Results

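The 10 genes described here are cadherins, claudins and other genes used to follow the epithelial-mesenchymal transition (EMT): Cdh1, Cdh2, Epcam, Cldn6, Cldn7, Esrp1, Snai1, Zeb2, Vim and Fn1. They were chosen by symbol, and each occurs once among the 53796 genes listed in every RNA table of the study. All 10 passed the filter on low values, a mean of at least 1 FPKM, in both knockout tables. FPKM counts the fragments of a gene relative to its transcript length and to the fragments mapped in the library.

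RNA was sequenced from V6.5 mouse embryonic stem (ES) cells, self-renewing cells of the early embryo, in 15 libraries of 5 groups with 3 libraries each. Dot1l KO cells in medium with leukemia inhibitory factor (LIF, 100 U/ml), which keeps ES cells undifferentiated, were set against cells with a control guide RNA (sgRNA) in the same medium, whose genotype is given as WT. The second pair was Dot1l KO and control sgRNA cells given Wnt3a at 50 ng/ml with activin A at 10 ng/ml, signals that drive ES cells towards mesoderm and endoderm. Per the labels' protocols these cells had first spent 2 days on gelatin in N2B27 medium with 10 µM Y-27632, and differentiating cells were usually harvested after 24 h. The fifth group was ES cells labelled Cdk1as/as, a form of the mitotic kinase Cdk1 that accepts analog inhibitors, which the series' design text calls WT cells. The general protocol keeps ES cells on a layer of inactivated mouse fibroblasts. The labels do not say whether KO cells were a clone or a pool, nor whether the replicates were cultured apart. The p-values below therefore rest on the spread between libraries, which may be technical.

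Cdh1 encodes E-cadherin, the calcium-dependent adhesion protein that holds epithelial cells and ES cells together, and Cdh2 encodes N-cadherin, its counterpart in mesenchymal and neural cells. In the gastrulating embryo, cells that leave the epiblast through the primitive streak pass through an EMT, in which transcription factors of the Snail and Zeb families repress epithelial genes and N-cadherin comes to take the place of E-cadherin. Claudins seal the tight junctions of epithelia, Epcam is an epithelial surface glycoprotein, Esrp1 directs epithelial splicing, vimentin is the intermediate filament of mesenchymal cells and fibronectin is a matrix protein they secrete.

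Snail and Zeb factors are known to bind the E-box CACCTG, which reads CAGGTG on the other strand. RefSeq promoters of GRCm38.p6, from 250 bases before to 50 bases after a transcript start, were matched by symbol for 6 members with 10 entries. The E-box was found on either strand in 1 entry each of Epcam, Cldn6, Cldn7 and Snai1, and not in the other Cldn7 entry, the 4 entries of Zeb2 or that of Vim. Among 32851 promoters of this length 20.2% held it, and 2.88% held at least 2. In KO cells differentiated with Wnt3a and activin A, Epcam, Cldn6 and Cldn7 were lower and Snai1 was higher. Vim, which had no match, was also called lower. Whether the E-box bears on these changes was not tested. The 4 promoters with a match are shown. Each is on the plus strand, and capitals mark the E-box.
Epcam, chr17:87635729-87636028: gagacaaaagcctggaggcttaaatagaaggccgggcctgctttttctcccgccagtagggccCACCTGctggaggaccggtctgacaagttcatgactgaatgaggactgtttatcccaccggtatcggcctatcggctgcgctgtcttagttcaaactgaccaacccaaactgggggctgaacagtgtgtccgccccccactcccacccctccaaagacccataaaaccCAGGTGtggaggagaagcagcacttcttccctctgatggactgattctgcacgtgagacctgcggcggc
Cldn6, chr17:23679115-23679414: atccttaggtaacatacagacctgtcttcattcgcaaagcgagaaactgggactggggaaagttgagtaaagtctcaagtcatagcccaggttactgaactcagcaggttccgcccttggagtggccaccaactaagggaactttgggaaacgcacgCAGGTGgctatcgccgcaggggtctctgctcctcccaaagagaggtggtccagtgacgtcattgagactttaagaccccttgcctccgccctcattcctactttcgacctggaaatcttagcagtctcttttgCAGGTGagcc
Cldn7, chr11:69965171-69965470: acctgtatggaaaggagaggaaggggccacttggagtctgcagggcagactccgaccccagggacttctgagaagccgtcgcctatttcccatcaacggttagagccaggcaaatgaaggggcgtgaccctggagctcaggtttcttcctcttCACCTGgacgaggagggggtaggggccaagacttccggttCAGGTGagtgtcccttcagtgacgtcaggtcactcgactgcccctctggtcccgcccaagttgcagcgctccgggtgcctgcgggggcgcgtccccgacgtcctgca
Snai1, chr2:167537945-167538244: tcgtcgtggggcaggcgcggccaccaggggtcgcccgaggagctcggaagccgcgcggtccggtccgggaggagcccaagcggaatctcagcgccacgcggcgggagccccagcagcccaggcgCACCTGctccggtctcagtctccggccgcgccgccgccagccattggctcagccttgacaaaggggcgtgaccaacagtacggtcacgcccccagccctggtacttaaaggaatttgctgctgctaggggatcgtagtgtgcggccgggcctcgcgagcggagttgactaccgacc

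Epcam had 2 matches, 187 and 19 bases before the start. Cldn7 had 2 as well, 97 and 57 bases before the second of its listed starts. Cldn6 had 1 match 93 bases before and 1 that began 40 bases after the start, and Snai1 had 1 match, 126 bases before it. Cdh1, Esrp1 and Fn1 had no promoter entry. Cdh2 was left out of the search, so whether its promoter holds the E-box was not tested. A match is a run of letters, and binding was not measured here.

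Dot1l, the histone H3 lysine 79 methyltransferase that was targeted, was at 11.2, 8.90 and 10.8 FPKM in KO cells in LIF, against 21.2, 20.6 and 24.6 FPKM in control cells (log2 fold change -1.04, limma adjusted p = 0.0178). Without any 1 library the value stayed between -1.09 and -0.94, but limma adjusted p lay between 0.0557 and 0.0781. Under Wnt3a and activin A it was at 13.5, 12.9 and 14.7 FPKM in KO cells, against 18.5, 17.7 and 19.1 FPKM in control cells (log2 fold change -0.40, limma adjusted p = 0.00462), and with summed FPKM made equal this turned to 0.09 (limma adjusted p = 0.366). The transcript was thus present in every library labelled KO. One KO library in LIF, replicate 3, gave 28.6% of its summed FPKM to Mir6236, against 5.25% to 8.31% in the remaining LIF libraries of both groups. Its correlation with them was 0.925 to 0.934, against 0.944 to 0.959 among the others (Pearson's r of log2(FPKM + 1) across genes, which are not independent replicates). Under Wnt3a and activin A the summed FPKM was 759255 to 792381 in KO libraries and 1087971 to 1144373 in control libraries, so absolute directions there depend on the scaling. In LIF 580 of 13153 genes passed a limma adjusted p of 0.05 and under Wnt3a and activin A 6273 of 12770, and the median log2 fold change of all genes was -0.07 and -0.08. Pluripotent cell markers summed to 3238 to 3287 FPKM in KO and 3932 to 4031 FPKM in control cells in LIF. Of these markers 7 of 8 were called lower, where 3.45% of all genes were. That count was 3 with median-of-ratios or quantile scaling and 0 in each fit without 1 library. Mesendoderm markers summed to 1136 to 1178 FPKM in KO and 694 to 752 FPKM in control cells under Wnt3a and activin A. The sequencing depth behind FPKM values is unknown.

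In LIF E-cadherin was among the most abundant of the 10 transcripts, and N-cadherin had the lowest mean of the 10 in all 3 undifferentiated groups. Cdh1 averaged 162 ± 3.24 FPKM in KO and 166 ± 12 FPKM in control cells (SD, n = 3 each). Epcam averaged 153 ± 5.45 FPKM in KO and 144 ± 2.89 FPKM in control cells, and Vim 147 ± 33.5 FPKM in KO and 161 ± 11.9 FPKM in control cells. Fn1, Cdh1, Epcam and Vim thus formed the upper 4 in LIF, and in KO cells no neighbours among them were separated. Cldn7 and Cldn6 followed at 58.0 and 54.8 FPKM in KO cells and 47.4 and 45.3 FPKM in control cells, with overlapping libraries in both groups. Esrp1 stood apart from its neighbours at 15.2 ± 0.495 FPKM in KO and 15.1 ± 0.791 FPKM in control cells. Snai1, Zeb2 and Cdh2 were the lowest in both groups, at 4.22, 1.96 and 1.28 FPKM in KO cells and 3.02, 2.05 and 1.18 FPKM in control cells.

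Under Wnt3a and activin A the order was another one. Vim led in both groups, at 273 ± 8.26 FPKM in KO and 306 ± 5.04 FPKM in control cells. In control cells Cldn7, Cldn6, Epcam, Cdh1 and Fn1 followed in that order and no neighbours overlapped. In KO cells the same 5 genes lay close together, between 115 FPKM for Cldn6 and 99.5 FPKM for Fn1, and overlapped at 3 of the 4 steps between them. Zeb2 was the lowest in both groups, at 2.2 ± 0.716 FPKM in KO and 1.30 ± 0.724 FPKM in control cells. The LIF and the Wnt3a tables were scaled separately, so levels are set side by side between them with no test.

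**Figure D1:**
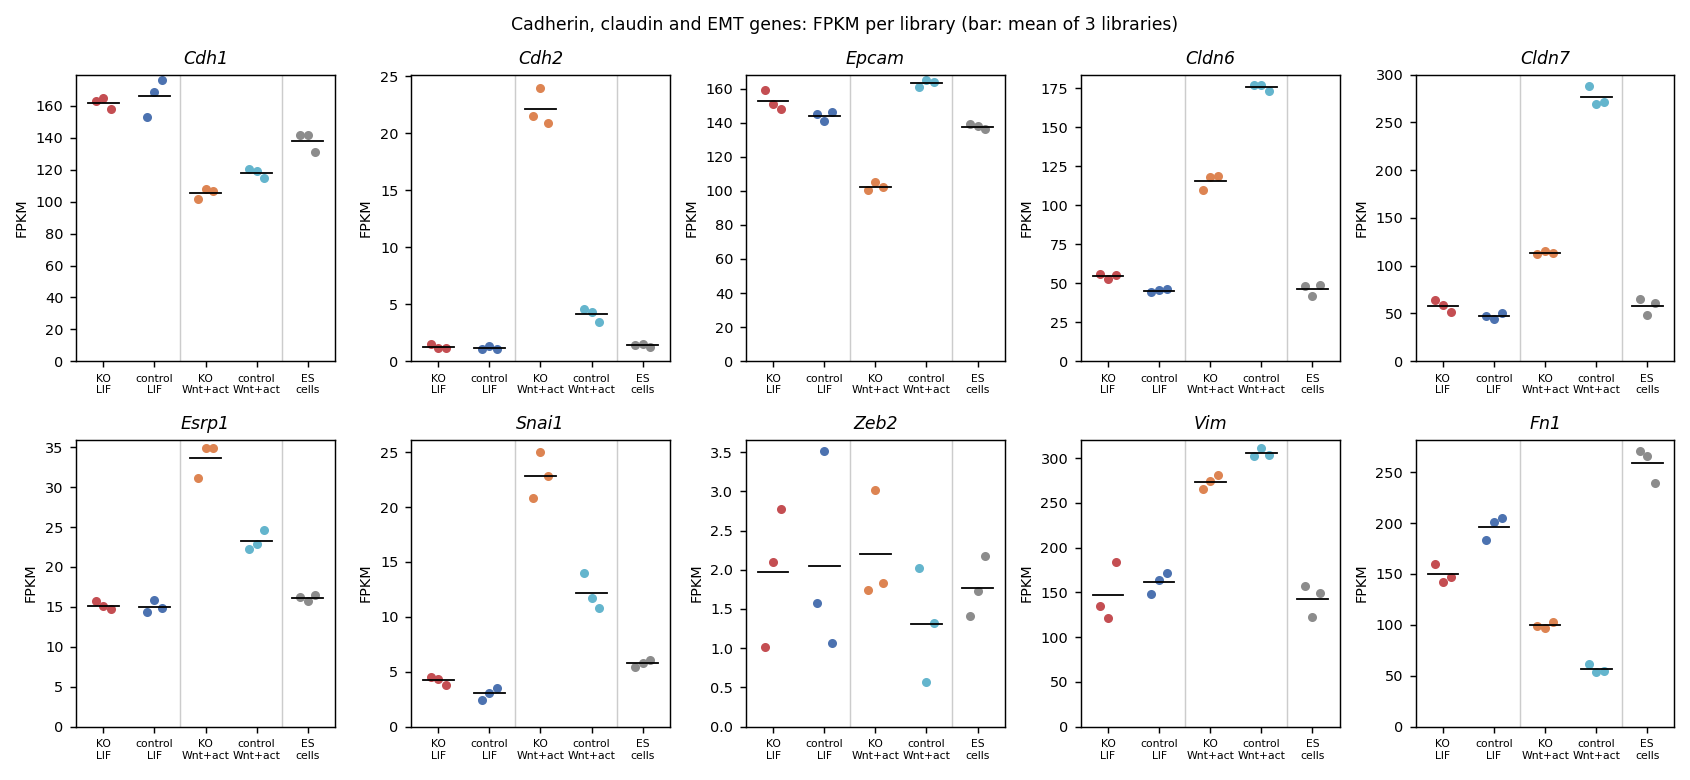
FPKM of the 10 genes in each library, with KO left of control in each condition and the Cdk1as/as ES cells at the right; points are libraries and bars are means of 3 libraries. Under Wnt3a and activin A the KO libraries of Cdh2 sit between 20.9 and 24.0 FPKM and the control libraries between 3.43 and 4.62 FPKM, while those of Cldn7 sit between 112 and 115 FPKM in KO and between 269.7 and 288 FPKM in control cells.

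The first comparison asked what the Dot1l KO changes in undifferentiated cells. Cldn6 rose and Fn1 fell in the KO, by less than 1.5-fold each, and the other 8 members did not pass the test. The 2 members called, 1 higher and 1 lower, stand against 4.41% of all genes called in LIF, 0.958% higher and 3.45% lower. In 5 members the KO and control libraries did not overlap, against 31.2% of all genes. The median log2 fold change of the 10 members was 0.04, against -0.07 over all genes tested.

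Cldn6, a claudin of early epithelia and pluripotent cells (chromosome 17, 23679348 to 23682446 of GRCm38.p6), was at 56.1, 52.8 and 55.3 FPKM in KO cells and at 44.4, 45.4 and 46.1 FPKM in control cells in LIF. Every KO library lay above every control library (log2 fold change 0.27, SE 0.05, limma adjusted p = 0.042). Fn1, which encodes fibronectin (chromosome 1, 71585473 to 71653280), was at 159.8, 142 and 147 FPKM in KO cells and at 183, 201 and 205 FPKM in control cells. Every KO library lay below every control library (log2 fold change -0.39, SE 0.07, limma adjusted p = 0.0374). Both calls ended when any 1 of the 6 libraries was left out, with limma adjusted p between 0.0901 and 0.136 for Cldn6 and between 0.061 and 0.123 for Fn1. In the authors' deposited table the q-value was 0.0417 for Cldn6, the 1 member under 0.05 there, against 6.73% of genes with a q-value, and it was 0.0705 for Fn1.

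Epcam, Cldn7 and Snai1 also had all KO libraries above all control libraries in LIF, without passing the test. Cldn7 was at 64, 58.8 and 51.3 FPKM in KO cells and 47.5, 44.4 and 50.4 FPKM in control cells (log2 fold change 0.28, limma adjusted p = 0.141), so the nearest libraries were less than 1 FPKM apart. Snai1 was at 4.47, 4.37 and 3.81 FPKM in KO cells and 2.44, 3.08 and 3.55 FPKM in control cells (log2 fold change 0.38, limma adjusted p = 0.159). Epcam had a log2 fold change of 0.08 (limma adjusted p = 0.325). Cdh1, Cdh2, Esrp1, Zeb2 and Vim overlapped between the groups, with log2 fold changes from -0.16 for Vim to 0.06 for Cdh2 and limma adjusted p of 0.593 to 0.991. Cdh2 was at 1.48, 1.18 and 1.18 FPKM in KO cells and 1.09, 1.38 and 1.08 FPKM in control cells, so N-cadherin was low in both.

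Fibroblasts are a known source of Vim, Fn1 and Cdh2 transcripts, and feeders are part of the general protocol. The 15 fibroblast and feeder markers summed to 96.7 to 105 FPKM in KO cells and to 52.0 to 73.8 FPKM in control cells in LIF, with 3 of the 10 tested higher and none lower in the KO, where 0.958% of all genes were called higher and 3.45% lower. Extraembryonic endoderm markers summed to 324 to 346 FPKM in KO and 249 to 285 FPKM in control cells in LIF, with 2 of 12 higher and 0 lower. In both lists 0 markers were called in each fit without 1 library, and 0 with the replicate number as a block. Lum was at 0 in every LIF library, and Dcn was at 0 in every control library and at most 0.0373 FPKM in KO cells. The share of these cell types in the values of Vim, Fn1 and Cdh2 was not tested. In bulk RNA, fewer cells of a type and less RNA per cell cannot be told apart.

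The second comparison asked what the KO changes in differentiating cells. Cdh2 was the member with the largest change, 5.35-fold higher in the KO, while the claudin genes Cldn6 and Cldn7 and Epcam were lower and Snai1, Fn1 and Esrp1 higher. In all, 9 of the 10 members were called, 4 higher and 5 lower, and Zeb2 was not. The condition gave calls at 49.1% of all genes (19.6% higher and 29.5% lower), and groups that did not overlap at 60.1%, against the same 9 members. The median log2 fold change of the 10 members was 0.17, against -0.08 over all genes tested. By the authors' deposited q-values, 7 members had a value under 0.05, and Cdh1 (0.101), Zeb2 (0.131) and Vim (0.273) did not, where all genes with a q-value gave 45.1%.

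Cdh2 (chromosome 18, 16588877 to 16809246 of GRCm38.p6), encoding N-cadherin, was at 21.5, 24.0 and 20.9 FPKM in KO cells and at 4.62, 4.36 and 3.43 FPKM in control cells under Wnt3a and activin A. The groups lay far apart (log2 fold change 2.18, SE 0.11, limma adjusted p = 7.95e-05). Cdh1 (chromosome 8, 106603350 to 106670247), encoding E-cadherin, was at 102, 108 and 107 FPKM in KO cells and at 120.2, 119 and 115 FPKM in control cells. Its KO libraries all lay below the control libraries, by a small margin (log2 fold change -0.16, SE 0.04, limma adjusted p = 0.0242), but the direction turned with the scaling: it was 0.23 with quantile normalization, 0.13 with the trend in gene span and level removed and 0.36 with summed FPKM made equal. The Cdh1 call also ended without control replicate 1 (limma adjusted p = 0.0751), control replicate 2 (0.067) or KO replicate 1 (0.0612).

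The ratio of the 2 cadherins within a library does not depend on a single factor that scales the whole library. It was not computed after quantile normalization or after removal of the trend in gene span and level, which shift genes by different amounts. The log2 ratio of Cdh2 to Cdh1 was -2.24, -2.17 and -2.36 in KO cells and -4.70, -4.77 and -5.07 in control cells under Wnt3a and activin A. E-cadherin transcripts were thus 4.78 times those of N-cadherin in KO cells and 28.8 times in control cells, per transcript length. The difference of 2.59 on the log2 scale, 6.03-fold, gave p = 0.1 in a two-sided exact permutation test, which is the smallest p that 3 against 3 libraries allow (0.2 adjusted over the 4 ratio comparisons made). In LIF the mean log2 ratio was -6.99 ± 0.18 in KO and -7.14 ± 0.21 in control cells, and the libraries overlapped (exact permutation p = 0.5, adjusted 0.667). The Cdk1as/as ES cells were at -6.63 ± 0.05, so both differentiated groups, and the KO more so than the control, lay nearer to equal levels than any undifferentiated library.

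**Figure D2:**
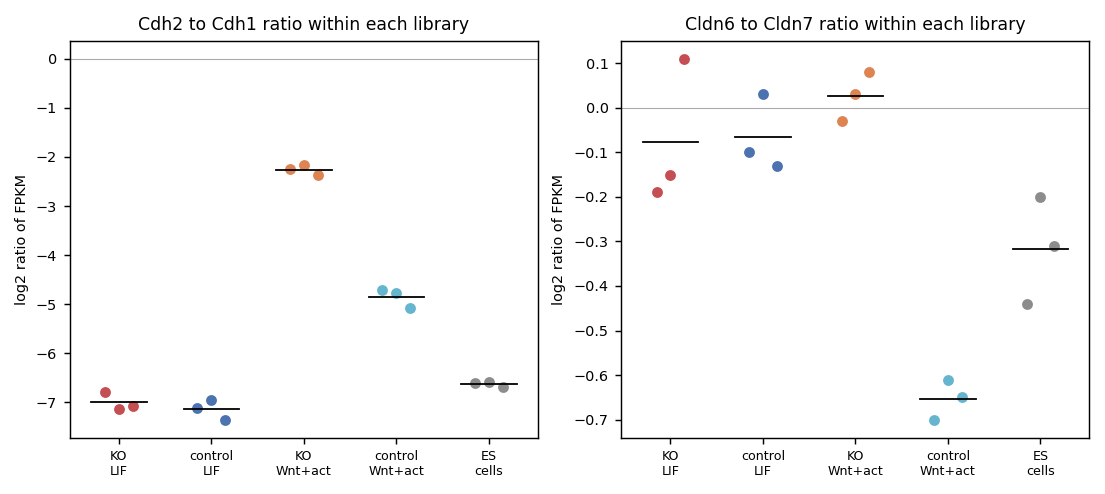
Log2 ratio of FPKM within each library, Cdh2 to Cdh1 at the left and Cldn6 to Cldn7 at the right, with KO left of control in each condition; points are libraries, bars are means of 3 libraries and the grey line marks equal levels. Under Wnt3a and activin A the Cdh2 to Cdh1 ratio is between -2.36 and -2.17 in KO and between -5.07 and -4.70 in control libraries, and the Cldn6 to Cldn7 ratio is between -0.03 and 0.08 in KO and between -0.70 and -0.61 in control libraries.

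Cldn7, a claudin of simple epithelia (chromosome 11, 69964779 to 69967886 of GRCm38.p6), had the largest decrease among the members. It was at 112, 115 and 113 FPKM in KO cells and at 288, 269.7 and 271 FPKM in control cells under Wnt3a and activin A (log2 fold change -1.28, SE 0.04, limma adjusted p = 5.19e-05). Cldn6 was at 109.8, 118 and 119 FPKM in KO cells and at 177, 177 and 173 FPKM in control cells (log2 fold change -0.60, SE 0.05, limma adjusted p = 0.000213). The KO libraries of both claudins lay below all control libraries. Cldn7 passed under all 8 other settings, while the Cldn6 call ended with the trend in gene span and level removed (-0.02, limma adjusted p = 0.696) and with summed FPKM made equal (-0.08, limma adjusted p = 0.156). The log2 ratio of Cldn6 to Cldn7 was 0.03 ± 0.05 in KO and -0.65 ± 0.05 in control cells, with no overlap (difference 0.68, exact permutation p = 0.1, the smallest possible, adjusted 0.2). In LIF this ratio was -0.08 ± 0.16 in KO and -0.06 ± 0.08 in control cells (exact permutation p = 0.9, adjusted 0.9).

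Epcam (chromosome 17, 87635979 to 87651127 of GRCm38.p6), the surface glycoprotein that also binds claudins, was at 100.5, 105 and 102 FPKM in KO cells and at 161, 165 and 164 FPKM in control cells. It was lower in every KO library (log2 fold change -0.67, SE 0.04, limma adjusted p = 0.000102), and with summed FPKM made equal the value was -0.15 and still passed. Esrp1, the splicing regulator (chromosome 4, 11331933 to 11386783), moved the other way, at 31.1, 34.9 and 34.9 FPKM in KO cells and 22.2, 22.9 and 24.6 FPKM in control cells (log2 fold change 0.52, SE 0.07, limma adjusted p = 0.00182). The files list 4 genes at the Esrp1 locus, Dpy19l4 among them, so reads may be shared there.

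Snai1, the Snail transcription factor (chromosome 2, 167538195 to 167542814 of GRCm38.p6), was at 20.8, 25.0 and 22.8 FPKM in KO cells and at 14.0, 11.7 and 10.8 FPKM in control cells under Wnt3a and activin A. Every KO library was higher (log2 fold change 0.86, SE 0.11, limma adjusted p = 0.00152). Zeb2, the other repressor (chromosome 2, 44983512 to 45117442), was at 1.74, 3.02 and 1.83 FPKM in KO cells and 2.02, 0.571 and 1.32 FPKM in control cells. Its libraries overlapped (log2 fold change 0.50, SE 0.29, limma adjusted p = 0.197). The value lay between 0.25 and 0.72 without any 1 library, and with summed FPKM made equal it was 0.82 and called higher (limma adjusted p = 0.0449). At such levels log2(FPKM + 1) understates a fold change, and the files list 7 genes at the Zeb2 locus, among them its antisense gene Zeb2os.

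Fn1 was at 99.1, 96.8 and 103 FPKM in KO cells and at 61.9, 53.5 and 54.7 FPKM in control cells under Wnt3a and activin A. Fibronectin transcript was thus higher in every KO library here (log2 fold change 0.80, SE 0.07, limma adjusted p = 0.000301), where in LIF it was lower. Vim, encoding vimentin (chromosome 2, 13574311 to 13582826 of GRCm38.p6), was at 265, 274 and 281 FPKM in KO cells and at 302, 311 and 304 FPKM in control cells (log2 fold change -0.16, SE 0.04, limma adjusted p = 0.015). Like Cdh1, Vim turned round with the scaling, to 0.33 with quantile normalization, 0.41 with the trend in gene span and level removed and 0.36 with summed FPKM made equal. Its call ended without control replicate 2 (limma adjusted p = 0.0504). The call also ended with median-of-ratios scaling (-0.10, limma adjusted p = 0.0504) and without a trend in limma (-0.16, limma adjusted p = 0.0614).

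**Figure D3:**
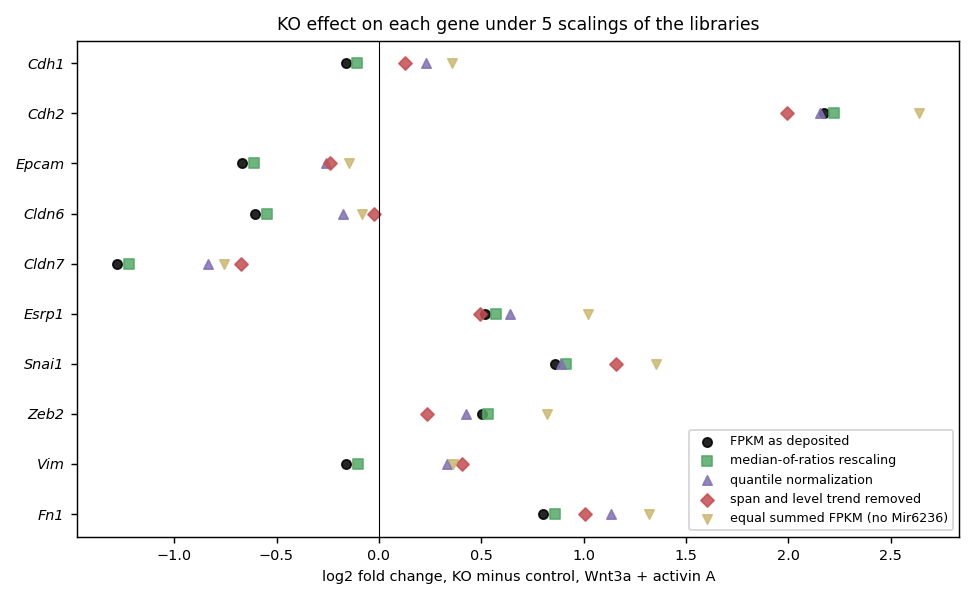
Log2 fold change of each of the 10 genes, KO minus control under Wnt3a and activin A, with FPKM as deposited and under 4 other scalings of the libraries. Cdh2 stays between 1.99 and 2.64 and Cldn7 between -1.28 and -0.67, Cldn6 approaches 0 (-0.02 after removal of the trend in span and level), and Cdh1 and Vim lie on both sides of 0.

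Cdh2, Esrp1, Snai1, Fn1, Cldn7 and Epcam kept their direction and their call under Wnt3a and activin A in all 8 other settings and without any 1 library. Over the 8 settings Cdh2 ranged from 1.99 to 2.64, Snai1 from 0.86 to 1.35, Fn1 from 0.80 to 1.32, Esrp1 from 0.49 to 1.02 and Epcam from -0.67 to -0.15 on the log2 scale. With summed FPKM made equal the median of all genes moved to 0.37 and 85.8% of the called genes were higher, against 39.9% as deposited, so a value near 0 on that scale is below the typical gene.

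Markers of other cell types also changed under Wnt3a and activin A, where 19.6% of all genes were called higher and 29.5% lower. All 8 mesendoderm markers were called higher in differentiating KO cells. Of these, Mesp1, at 12.3 FPKM in KO and 0.975 FPKM in control cells, passed the filter on low values through the KO group. Its call is therefore no support for that list. Extraembryonic endoderm markers summed to 1062 to 1085 FPKM in KO and 771 to 804 FPKM in control cells, with 9 of 12 higher and 1 lower. Foxa2 is in this list and in that of the mesendoderm markers, so these counts are not separate. Pluripotent cell markers summed to 1706 to 1796 FPKM in KO and 2545 to 2685 FPKM in control cells, with 6 of 8 lower and 1 higher. This split depended on the scaling. It was 3 lower and 2 higher with quantile normalization and with the trend in gene span and level removed. With summed FPKM made equal it was 2 lower and 3 higher. Of 11 tested fibroblast and feeder markers 6 rose and 1 fell. Their sum, 141 to 149.5 FPKM in KO and 304 to 336 FPKM in control cells, was mostly that of Tagln, at 78.4 FPKM in KO and 270.2 FPKM in control cells. Lum was at 0 in all control libraries and at most 0.142 FPKM in KO libraries. The part of these cell types in the values of the members was not tested.

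The KO effects in the 2 conditions were then compared by an interaction term over the 12 libraries. It was called for 6 of the 10 members, 3 positive and 3 negative, against 38.3% of 11783 genes tested in both tables (17.6% positive, 20.7% negative). Positive values mean a higher KO effect under Wnt3a and activin A than in LIF. The difference was 2.12 for Cdh2 (SE 0.16, limma adjusted p = 1.37e-05), 1.19 for Fn1 (SE 0.10, limma adjusted p = 1.75e-05) and 0.51 for Esrp1 (SE 0.09, limma adjusted p = 0.00197). It was -1.56 for Cldn7 (SE 0.11, limma adjusted p = 7.08e-06), -0.87 for Cldn6 (SE 0.06, limma adjusted p = 8.34e-06) and -0.75 for Epcam (SE 0.05, limma adjusted p = 1e-05). These 6 calls held in all 8 other settings and without any 1 of the 12 libraries.

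Cldn6, Cldn7, Epcam and Fn1 had opposite signs in the 2 conditions. The claudins and Epcam had KO libraries above control libraries in LIF and below them under Wnt3a and activin A, and Fn1 the reverse. For Snai1 the difference was 0.48 and missed the threshold (SE 0.18, limma adjusted p = 0.0569), and it passed in 4 of the 8 other settings. Cdh1 (-0.13, limma adjusted p = 0.202), Zeb2 (0.51, limma adjusted p = 0.442) and Vim (-0.01, limma adjusted p = 0.984) were not called. With summed FPKM made equal Cdh1 was called at 0.32 (limma adjusted p = 0.00479).

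**Figure D4:**
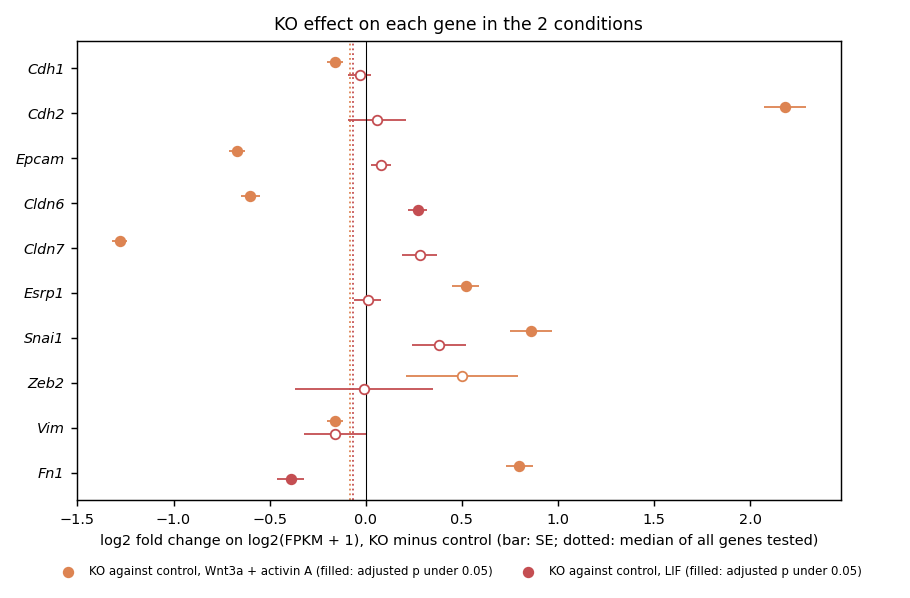
Log2 fold change of each gene on log2(FPKM + 1), KO minus control, in both conditions; bars are standard errors from limma, filled points passed a limma adjusted p of 0.05 and dotted lines are the medians of all genes tested. Cdh2, at 2.18 under Wnt3a and activin A and 0.06 in LIF, and Cldn7, at -1.28 and 0.28, show the widest gaps between conditions.

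The wider families of these genes were read from 8 lists. Among claudin and tight junction genes under Wnt3a and activin A, 10 of 12 tested fell and 1 rose, with a median log2 fold change of -0.60 against -0.08 over all genes. The median stayed negative in every scaling, from -0.68 to -0.11, but with summed FPKM made equal only 4 were lower and 3 higher. In that setting 1032 of 12769 genes were called lower and 6252 higher. Cldn4, a claudin of simple epithelia, was at 40.4 ± 2.89 FPKM in KO and 126 ± 4.95 FPKM in control cells (log2 fold change -1.62, limma adjusted p = 5.83e-05). Cldn3 was at 8.60 ± 1.23 FPKM in KO and 27.7 ± 3.89 FPKM in control cells (-1.58, limma adjusted p = 0.000322), and the scaffold gene Tjp3 at 4.75 ± 0.485 FPKM in KO and 10.7 ± 0.728 FPKM in control cells (-1.02, limma adjusted p = 0.000435). These 3 passed in all 8 other settings. The 1 that rose, Tjp1, the ZO-1 scaffold, was at 33.2 ± 0.842 FPKM in KO and 21.7 ± 1.72 FPKM in control cells (0.60, limma adjusted p = 0.000982) and is named here after its value was seen. In LIF 1 of 14 tested rose, which was Cldn6, and none fell, where 0.958% of all genes were called higher and 3.45% lower.

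Epcam and 10 genes of its partners and of the epithelial surface gave a like count under Wnt3a and activin A. Of these 11 genes 9 were called lower and 1 higher, against 29.5% and 19.6% of all genes, with a median of -0.74. The median lay between -0.71 and -0.28 in the other scalings, and with summed FPKM made equal 6 were lower and 2 higher. In that setting 1032 of 12769 genes were called lower and 6252 higher. Crb3, an apical polarity protein, was at 28.7 ± 0.889 FPKM in KO and 78.8 ± 3.00 FPKM in control cells (-1.43, limma adjusted p = 5.19e-05). The small GTPase gene Rab25 (-1.19) and the serine protease gene Prss8 (-1.02) were lower too (limma adjusted p = 0.000945 and 0.000178). Cd24a, a surface glycoprotein named after its value was seen, was the one that rose (0.65, limma adjusted p = 0.000158). In LIF 2 of 10 tested fell, the tetraspanin gene Cd9 (-0.31, limma adjusted p = 0.0253) and the protease inhibitor gene Spint1 (-0.36, limma adjusted p = 0.0301). Of all genes 3.45% were called lower in LIF.

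**Figure D5:**
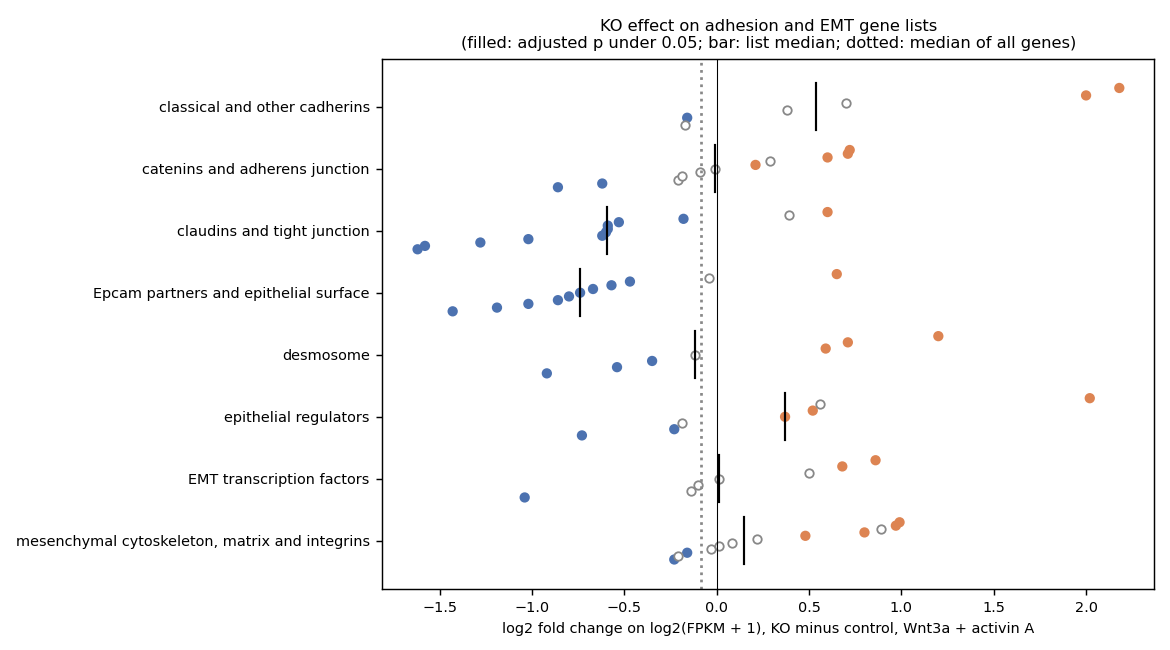
Log2 fold change of each tested gene of the 8 lists, KO minus control under Wnt3a and activin A, on log2(FPKM + 1); filled points passed a limma adjusted p of 0.05 (orange higher, blue lower), black bars are list medians and the dotted line is the median of all genes. The claudin and Epcam lists lie mostly left of the dotted line, with medians of -0.60 and -0.74, and the other 6 lists hold points on both sides.

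The other lists had calls in both directions under Wnt3a and activin A, where 49.1% of all genes were called (19.6% higher and 29.5% lower), and with summed FPKM made equal most of their calls were higher. Of 6 cadherin genes tested, Cdh2 and Cdh11 were called higher and Cdh1 lower, and with equal sums 5 were higher and 0 lower. The Cdh1 call also ended with median-of-ratios scaling, without a trend and with the replicate number as a block. Cdh11, another mesenchymal cadherin, was at 6.04 ± 1.40 FPKM in KO and 0.770 ± 0.464 FPKM in control cells, with 5 genes listed at its locus. It passed the filter on low values through the KO group, so its call is no support for the list. Of 11 catenin and adherens junction genes 4 were called higher and 2 lower (6 and 2 with quantile normalization, 7 and 1 with equal sums), among them the nectins, immunoglobulin-like adhesion proteins, in opposite directions. Nectin1 was at 34.8 ± 7.58 FPKM in KO and 20.7 ± 3.5 FPKM in control cells (0.71, limma adjusted p = 0.02, and 0.0539 without control replicate 1), and Nectin2 at 59.3 ± 4.36 FPKM in KO and 108 ± 3.49 FPKM in control cells (-0.86, limma adjusted p = 0.000221). Vinculin, which links junctions to actin, rose too (Vcl, 0.72, limma adjusted p = 0.00447). In LIF 2 of 10 fell, plakoglobin (Jup, -0.53, limma adjusted p = 0.0219) and alpha-catenin (Ctnna1, -0.23, limma adjusted p = 0.0477), where 3.45% of all genes were called lower.

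Of 7 desmosome genes 3 were called higher and 3 lower, and with equal sums 4 and 0. Desmoplakin, the plaque protein that ties desmosomes to intermediate filaments, was at 10.4 ± 0.755 FPKM in KO and 3.95 ± 0.151 FPKM in control cells (Dsp, 1.2, limma adjusted p = 0.000176), and the desmosomal cadherin Dsg2 rose with it (0.71, limma adjusted p = 0.000775). The plaque gene Pkp3 fell (-0.92, limma adjusted p = 0.0135, and 0.135 with equal sums). Of 7 epithelial regulators 3 were called higher and 2 lower, and with equal sums 5 and 1. Rbm47, an RNA-binding protein, was at 20.6 ± 2.93 FPKM in KO and 4.27 ± 0.0254 FPKM in control cells (2.02, limma adjusted p = 8.2e-05), with 7 genes listed at its locus. The transcription factor gene Grhl3 rose slightly (0.37, limma adjusted p = 0.0199, up to 0.0668 without control replicate 1 or KO replicate 2 or 3, and up to 0.0836 in the 4 of 8 other settings that ended the call), and Ovol2, a transcription factor that represses mesenchymal genes, fell (-0.73, limma adjusted p = 0.00173).

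Of 7 EMT transcription factors tested 2 were called higher and 1 lower, 3 of 7 genes where 49.1% of all genes were called, and with equal sums 5 and 1. The 2 higher ones were Snai1 and Tcf4, an E protein, at 11 ± 0.253 FPKM in KO and 6.52 ± 0.725 FPKM in control cells (0.68, limma adjusted p = 0.00161). Snai3 was lower at 2.94 ± 0.330 FPKM in KO and 7.09 ± 0.754 FPKM in control cells (-1.04, limma adjusted p = 0.000788), but 210 genes are listed at the locus the files give it, so its value is uncertain. Of 12 mesenchymal cytoskeleton, matrix and integrin genes 4 were called higher and 2 lower (Vim among the lower ones), a split that turned to 5 and 0 with quantile normalization, 6 and 0 with the trend in gene span and level removed and 11 and 0 with equal sums. The matrix crosslinking enzyme gene Lox was at 2.23 ± 0.215 FPKM in KO and 0.632 ± 0.253 FPKM in control cells, and the hyaluronan receptor gene Cd44 at 2.86 ± 0.515 FPKM in KO and 0.968 ± 0.158 FPKM in control cells. Both passed the filter on low values through the KO group, so their calls are no support for the list. In LIF 2 of 13 were called higher and 1 lower, which was Fn1, where 0.958% of all genes were called higher and 3.45% lower. Lox was among the higher ones, at 2.24 ± 0.141 FPKM in KO and 0.889 ± 0.114 FPKM in control cells, and there too it passed the filter through the KO group. No gene of the cadherin, desmosome and EMT transcription factor lists was called in LIF as deposited or in the 8 other settings. Of 8 epithelial regulators tested in LIF 0 were called as deposited, and 1 was called higher with a pseudocount of 0.1, median-of-ratios, quantile and equal-sum scaling. Over all genes of LIF cells, 1 to 40 were called without 1 library, and 0 with the replicate number as a block, and the LIF calls of Jup, Ctnna1, Cd9, Spint1 and Lox each ended in all 6 fits without 1 library.

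The genes whose pattern over the 4 KO and control groups was most like that of Cdh2, among 11782 others, were Amot, Arhgef26 and Zfp703, with root mean square differences of 0.235, 0.320 and 0.338 on the log2 scale. Amot was at 4.24 FPKM in KO and 2.62 FPKM in control cells in LIF, and at 37.0 FPKM in KO and 6.65 FPKM in control cells under Wnt3a and activin A. Those most like Cdh1 were Arhgap9, Nans and Shq1, with root mean square differences of 0.004, 0.014 and 0.016. The measure spans 4 group means, so it describes these groups only. LIF and Wnt3a values were scaled separately, so differences in scaling between the conditions enter it.

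The Cdk1as/as ES cells gave a second view of undifferentiated cells, in a table scaled on its own and with no KO to set against. Cdh1 was at 138 ± 6.09 FPKM, Epcam at 138 ± 1.86 FPKM, Cldn7 at 58.2 ± 8.89 FPKM and Cldn6 at 46.4 ± 3.85 FPKM (SD, n = 3). Fn1 was the highest member there at 258 ± 17.4 FPKM and Vim stood at 143 ± 17.7 FPKM. Snai1 at 5.76 ± 0.284 FPKM, Zeb2 at 1.77 ± 0.382 FPKM and Cdh2 at 1.40 ± 0.112 FPKM were again the lowest 3, and Esrp1 was at 16.1 ± 0.390 FPKM. In all 5 groups Cdh1 stood above Cdh2 in every library.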

How the data were processed

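RNA libraries of 15 samples in 5 groups were used. The deposited values are FPKM, made by the authors for every gene in each library. The 2 KO tables also hold a p-value and a q-value from the authors' own comparison. STAR 2.5.4a, Cufflinks 2.2.1 and Cuffdiff and the builds mm9 and GRCm38 are named in the submitters' processing notes, with no role given. The library scaling and annotation release were not given in the sources used here. Of 37051 genes matched by symbol, 99.8% overlapped their GRCm38.p6 locus. ChIP-seq peak lists were not analysed here.

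Values were put on the log2(FPKM + 1) scale and genes averaging under 1 FPKM over a table's 6 libraries were left out. The KO tables were fitted separately with limma 3.58.1 in R 4.3.3 (trended prior variance, two-sided). P-values were adjusted by Benjamini-Hochberg over all genes tested, at a threshold of 0.05. An interaction term over 12 libraries compared the conditions. Ratios were tested by exact permutation. The scripts were tested on simulated data. Alternatives were a pseudocount of 0.1, no filter, median-of-ratios and quantile scaling, no trend, the replicate number as a block, a loess trend (span 0.3) in gene span and level removed, each library left out, and equal summed FPKM without Mir6236 (as TPM would scale), the last chosen after seeing the data. No depth is known for FPKM. FPKM divides by library size, so a few abundant genes shift the others.

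The 10 members, the lists and the tests were chosen with earlier results of these data known. Besides the members and Dot1l, each list gave, per comparison, up to 3 called genes by size of change, and the 3 genes most like Cdh1 and Cdh2. A gene that this rule names is not reported here.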

Additional observations from a re-analysis of the deposited data

Results flagged for a closer look

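The KO effect differed between the 2 conditions for 6 members by a test of the difference itself, the interaction term in limma. Of all genes tested in both conditions 38.3% were called by this test. The 18 list genes given below were picked because they passed it with the largest changes, so their calls are no support. Among the members the difference, the KO effect with Wnt3a and activin A minus that in LIF on the log2 scale, was 2.12 for Cdh2, 1.19 for Fn1 and 0.51 for Esrp1, and -0.75 for Epcam, -0.87 for Cldn6 and -1.56 for Cldn7. Among list genes it was positive for Rbm47 (2.14), Nectin1 (1.12), Vcl (0.92), Dsp (0.90), Tcf4 (0.71) and Dsg2 (0.69). It was negative for Cldn3 (-1.88), Cldn4 (-1.72), Crb3 (-1.58), Rab25 (-1.24), Ovol2 (-1.12), Snai3 (-1.04), Prss8 (-1.03), Nectin2 (-0.88), Tjp3 (-0.82), Elf3 (-0.59), Cdh3 (-0.43) and Perp (-0.43). Limma adjusted p of these 24 genes was at most 0.0484, that of Rab25. Leaving out 1 library ended the Rab25 call in 9 of 12 fits, all but those without control replicate 2 or KO replicate 2 in LIF or KO replicate 1 under Wnt3a and activin A, with limma adjusted p up to 0.105. It also ended in each of the 8 other settings, with limma adjusted p up to 0.172. Of the other list genes, Cdh3, Dsg2, Elf3 and Tcf4 kept the call in 7 of the 8 settings and Perp in 6. Cdh3, encoding P-cadherin, was at 23.8 ± 0.785 FPKM in KO and 19.8 ± 1.40 FPKM in control cells in LIF and at 6.45 ± 0.403 FPKM in KO and 7.38 ± 0.457 FPKM in control cells under Wnt3a and activin A (SD, n = 3), and was called in neither condition alone.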

How the results depend on the processing

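Counts in LIF depended on the processing. The 2 members and 580 genes called there became 0 and 259 with no filter on low values, 1 and 271 with quantile normalization, 0 and 236 in limma without a trend, 1 and 191 with the trend in gene span and level removed, and 1 and 271 with equal summed FPKM without Mir6236. Without 1 library they were 0 members and 1 to 40 genes. With the replicate number as a block they were 0 and 0 (2733 genes at an unadjusted p under 0.05), and under Wnt3a and activin A the block left 8 members called, ending the Cdh1 call (adjusted p = 0.0754). Same-numbered libraries did not deviate together (correlations of -0.0119 to 0.0621), so the numbers are not taken to pair them. Called members stayed within 1.5 times the main count under Wnt3a and activin A and in the difference between conditions. The count does not show directions, which changed under Wnt3a and activin A. With quantile normalization and with equal sums Cdh1 and Vim were called higher. With equal sums Zeb2 was called higher as well, and Cldn6 was not called.

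Reversed values, all log2, were these. For Zeb2 in LIF they were 0.0005 with a pseudocount of 0.1, 0.025 with median-of-ratios scaling and 0.0345 with equal sums. For Cdh1 they were 0.02, 0.0608, 0.0599 and 0.0383 in LIF with median-of-ratios, quantile, span and level, and equal sums, 0.23, 0.13 and 0.36 under Wnt3a and activin A and 0.17, 0.077 and 0.32 in the difference with the last 3. Vim gave 0.33, 0.41 and 0.36 under Wnt3a and activin A and 0.40, 0.45 and 0.45 in the difference. Cdh2 in LIF gave -0.0527 with quantile and -0.1016 with span and level. Dot1l under Wnt3a and activin A gave 0.0884, and Perp in the difference 0.0139, with equal sums. Without 1 library, Cdh1 in LIF lay between -0.0911 and 0.0107, Esrp1 between -0.022 and 0.0482, Cdh2 between -0.0008 and 0.12, Zeb2 between -0.25 and 0.31, the Vim difference between -0.13 and 0.17, and the LIF ratio of Cldn6 to Cldn7 between -0.1075 and 0.0404. The cause of these changes was not tested. Depth is unknown. Zeb2 had the largest standard error of the members, 0.36 in LIF and 0.29 with Wnt3a and activin A.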
